A study of Mus musculus with 6 samples.

Results

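The genes described here build ribosomes: 33 genes of the nucleolus, of ribosomal RNA (rRNA) processing and of RNA polymerase I, with Myc and its partner Max. They were chosen by symbol from a list, and all 33 were found among the 24421 gene symbols in the files. Ribosomes are assembled in the nucleolus. RNA polymerase I copies the rRNA genes into 1 long precursor, small nucleolar ribonucleoprotein particles (snoRNPs) modify it, and large processing complexes cut and fold it into the rRNAs of the small and large subunits. The transcription factor Myc, which binds DNA as a pair with Max, is a known activator of many of these genes, and enlarged nucleoli are a classical feature of prostate cancer cells.

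RNA was sequenced from 6 samples labelled mouse prostate, 2 from intact and 4 from castrated males, without treatment times or ages in the labels. Castration removes the main source of androgens, and per its title the study concerns how the androgen receptor governs translation in advanced prostate cancer. Both groups carry the PB-Cre4 transgene, in which a probasin promoter drives Cre in prostate epithelium, together with a floxed gene, so the intact samples are not wild type. Values are rescaled CPM, that is reads per 1000000 reads counted in genes, divided by a size factor per sample. Because no label says that these are different animals, each p-value reflects the scatter among the 6 samples alone, and part or all of that scatter may be technical.

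The samples held from 43679297 to 59170793 reads in genes, and the member with the fewest reads, Polr1e, had at least 627 in each sample. Counting error is thus small beside the wider differences between samples, but the narrowest gaps between samples can be of its size. Luminal epithelial markers were present throughout, with summed levels of 7924 to 8168 rescaled CPM in intact and 6418 to 8800 in castrated samples. Castrated samples also differed among themselves. Over 7 fibroblast markers, the summed level was 1917 in castrated sample 4, against 806 to 1365 in the other castrated samples. The intact samples, at 1702 and 1839, were closer to castrated sample 4. Col1a1, Col1a2 and Lum were higher in castrated sample 3 (258, 346 and 46.6) than in castrated sample 4 (225, 321 and 45.4). Summed over 8 basal epithelial markers, castrated samples 2 and 4 (3744 and 3006) were far above castrated samples 1 and 3 (810 and 1008). The intact sums (4027 and 4304) were above all 4, with Krt15 the largest part (2102 and 2389). Single markers differed: all castrated samples were below both intact samples in 4 of the 8. Krt5 (1367) and Krt14 (377) were highest in castrated sample 2. Trp63 in castrated samples 2 and 4 (77.5 and 82.9) exceeded both intact samples (47.6 and 70.6). In bulk tissue, fewer cells of a type and less RNA per cell cannot be told apart.

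The promoters of these genes can be read beside the values of Myc and Max, because the pair binds the E-box, whose letters are CACGTG. RefSeq start site windows on GRCm38.p6, from 250 bases before to 50 after the start, were found for 28 of the 33 members. Windows of Myc, Fbl, Npm1, Rrp12 and Bop1 were not used here. CACGTG, which reads the same on both strands, occurred in the windows of 6 of 28 members (21.4%), which were Rrn3, Nop2, Max, Pes1, Utp20 and Wdr43. It occurred in 22.6% of 190 genes of the pathway lists described below, in 11.4% of 10501 tested genes with a window and in 8.09% of all 27025 genes with a window. Those pathway lists include genes chosen as Myc targets, so the 22.6% is not a share of ribosome genes alone. The related letters CACGCG were searched on both strands as CACGCG or CGCGTG. They occurred for 9 of 28 members (32.1%), against 19.2% of the tested genes with a window and 10.5% of all genes with a window. Copies of CACGCG and CGCGTG can overlap each other, and a match is a run of letters, not a measured binding site. Stretches upstream of the start are shown for the 3 members with CACGTG before or across it, and for the RNA polymerase I subunit gene Polr1c, which has a copy of each orientation of the related motif side by side. Capitals mark the motifs, and each sequence is written 5′ to 3′ on the gene's own strand. They are chr16:13780449-13780698 (plus strand) for Rrn3, chr6:125131783-125131882 (plus) for Nop2, chr12:76962246-76962348 (minus) for Max and chr17:46248146-46248245 (minus) for Polr1c.
Rrn3: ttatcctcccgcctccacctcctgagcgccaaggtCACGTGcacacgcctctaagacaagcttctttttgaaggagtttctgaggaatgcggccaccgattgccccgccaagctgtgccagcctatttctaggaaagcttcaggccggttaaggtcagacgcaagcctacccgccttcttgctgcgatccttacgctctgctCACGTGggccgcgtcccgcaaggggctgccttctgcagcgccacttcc
Nop2: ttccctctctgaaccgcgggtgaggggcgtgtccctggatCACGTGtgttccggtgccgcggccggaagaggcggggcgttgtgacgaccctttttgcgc
Max: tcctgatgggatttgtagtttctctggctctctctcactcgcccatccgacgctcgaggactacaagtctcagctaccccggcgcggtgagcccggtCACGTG
Polr1c: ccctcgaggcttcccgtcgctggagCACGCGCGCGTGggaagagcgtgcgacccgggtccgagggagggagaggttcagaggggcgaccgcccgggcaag
In Rrn3, the copies begin 215 and 48 bases before the start, in Nop2 60 bases before it, and in Max the motif spans the start site.

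Across the 33 genes, 0 passed the threshold in limma at an adjusted p of 0.05, where 1.97% of 13898 tested genes did. At an unadjusted p under 0.05 there were also 0 of 33 in limma, against 15.9% of all tested genes. On the recovered reads, edgeR called 0 of 33 (1.46% of all genes) and DESeq2 0 of 33 (9.3%). The median log2 difference, castrated minus intact, was -0.03 over the members and 0.00 over all tested genes, with 16 members above and 17 below 0. The 95% interval of the log2 difference included 0 in all 33. It lay within -1 to 1, which is a change of under 2-fold either way, in 33 of 33 members and in 73.7% of all tested genes. It lay within -0.5 to 0.5 in 27 members and in 36.6% of all tested genes. The groups did not overlap in 3 of the 33, against 26.6% of all tested genes: Ubtf and Wdr75 were higher in each castrated sample (13.4% of all genes) and Polr1b lower (13.2%). The nearest intact and castrated values were close in each: 163 and 165 (Ubtf), 37.2 and 37.8 (Wdr75), 20.8 and 20.4 (Polr1b). Gaps this narrow can be of the size of counting error.

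**Figure D1:**
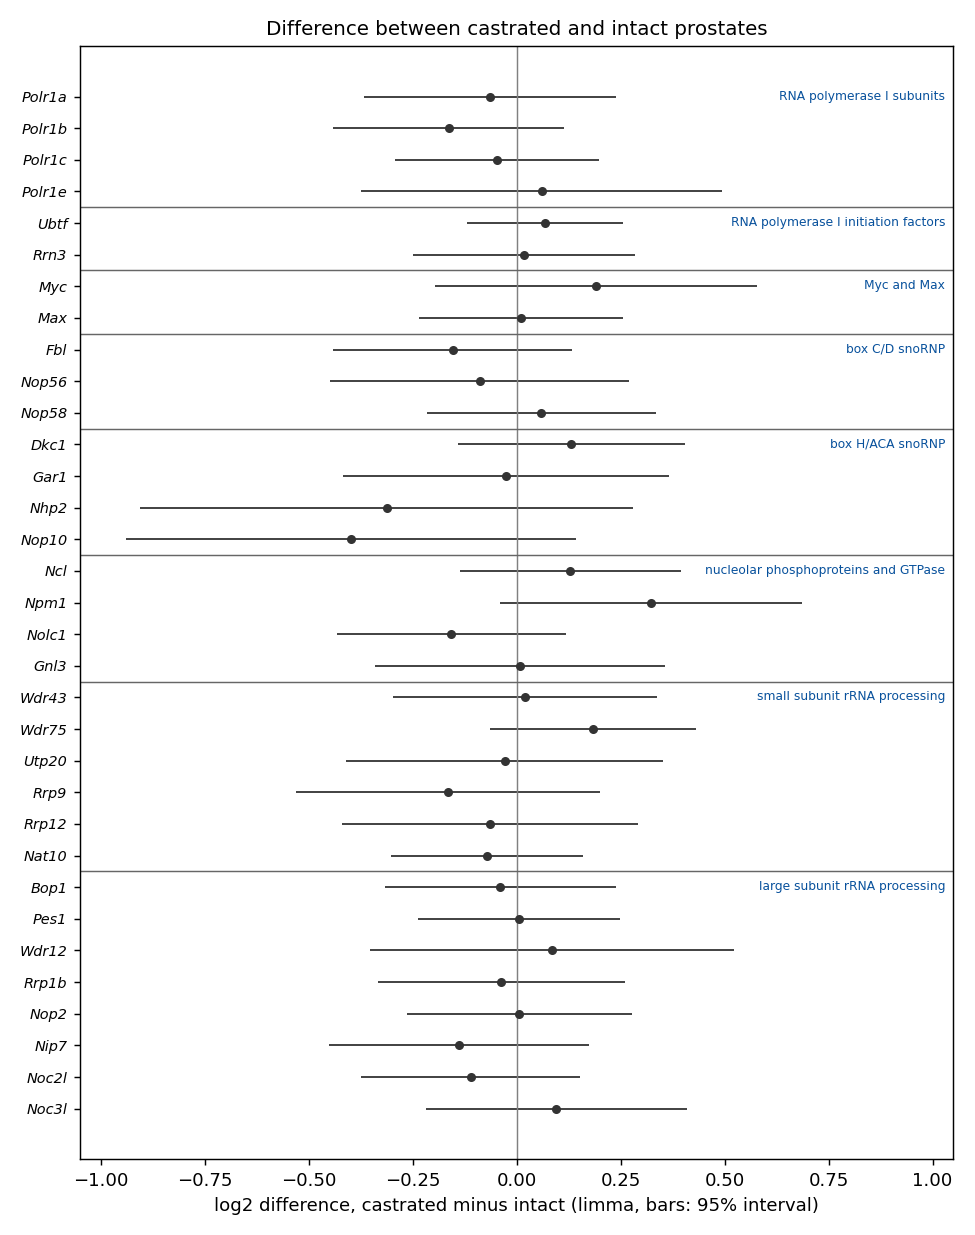
Log2 difference between castrated (n = 4) and intact (n = 2) samples for each of the 33 genes, ordered by role, on the scale of log2(rescaled CPM + 0.5); points are limma estimates and bars their 95% intervals. Each bar crosses 0, and the widest bars are those of Nhp2 and Nop10.

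RNA polymerase I subunits and their partners differed little between the groups. Polr1a, the largest subunit (chromosome 6, 71909053 to 71984935), had 44.1 rescaled CPM in intact sample 1 and 37.5 in intact sample 2, and 38.5, 37.5, 35.9 and 44.4 in castrated samples 1 to 4. Its highest values were thus in 1 intact and 1 castrated sample, and the log2 difference was -0.06 with an interval of -0.37 to 0.24. Polr1b, the second largest subunit (chromosome 2, 129100995 to 129126594), was at 23.7 and 20.8 in intact and at 18.5, 19.9, 20.4 and 20.3 in castrated samples. Each castrated sample was below both intact samples, although the gap between intact sample 2 and the nearest castrated sample was small. The log2 difference was -0.16 (-0.44 to 0.11), with an adjusted p of 0.572 in limma. Polr1c, a subunit shared with RNA polymerase III, was at 52.1 and 53 in intact and at 54.2, 50.9, 52.7 and 45.6 in castrated samples. Polr1e, which belongs to a subunit pair that acts in initiation and elongation, was at 14.7 and 11.4 in intact and at 16.5, 12.4, 13.3 and 12.2 in castrated samples. For both genes the groups overlapped, with log2 differences of -0.05 (-0.29 to 0.20) and 0.06 (-0.37 to 0.49).

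Ubtf, the upstream binding factor that keeps rRNA genes open and recruits the polymerase (chromosome 11, 102304560 to 102319742), was the steadiest member. It was at 154 and 163 in intact samples and at 167, 165, 169 and 165 in castrated samples. Each castrated sample was above both intact ones, by a log2 difference of 0.07 (-0.12 to 0.26, limma adjusted p = 0.745). Rrn3, the factor that joins the polymerase to the promoter and responds to growth signals (chromosome 16, 13780708 to 13814839), was at 51.5 and 42.0 in intact and at 47.6, 45.2, 49.1 and 46.3 in castrated samples. All 4 castrated values lay between the 2 intact values, and the log2 difference was 0.02 (-0.25 to 0.28).

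Of the 9 other polymerase I subunit genes tested, some of them shared with polymerases II or III, 0 passed the threshold and 0 had an unadjusted p under 0.05 in limma. Their median log2 difference was 0.03. The smallest unadjusted p among them belonged to Polr2h and Polr2f, at log2 differences of -0.13 and -0.14. Of 12 other factors, which include the promoter selectivity factor subunits Taf1a to Taf1d, 0 passed and 0 had an unadjusted p under 0.05, with a median of 0.03. The lowest p were those of Kdm2b (-0.30) and Top1 (0.16). The precursor rRNA itself, listed as Rn45s, had 4223 and 2602 rescaled CPM in the intact pair and 4051, 2782, 2094 and 1946 in the castrated group. The groups overlapped, and the samples differed by more than 2-fold within the castrated group. The log2 difference was -0.35, and its interval -1.21 to 0.51 (limma adjusted p = 0.711). No source used here says how rRNA was removed before sequencing, so these reads may not follow the amount of precursor in the tissue. The other listed RNAs, Rn4.5s, Rpph1 and Rmrp, stayed below the filter.

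Myc (chromosome 15, 61985391 to 61990374) had 73.7 rescaled CPM in intact sample 1 and 52.2 in intact sample 2, and 79.9, 71.3, 69.9 and 63.3 in castrated samples 1 to 4. All 4 castrated values lay above intact sample 2, and 3 of them lay below intact sample 1. The means were 62.9 ± 15.2 (SD, n = 2) and 71.1 ± 6.81 (n = 4), and the log2 difference of 0.19 had a 95% interval from -0.20 to 0.58 (limma adjusted p = 0.642). It was 0.43 without intact sample 1 and -0.06 without intact sample 2. Max (chromosome 12, 76937269 to 76962201) was at 121 and 106 in intact and at 119, 121, 111 and 106 in castrated samples, a log2 difference of 0.01 (-0.23 to 0.26). Max was thus steadier across samples than Myc. In the rest of the Myc network, which holds the antagonists and the paralogs, 0 of 10 tested genes passed the threshold. Mxi1, a repressor that competes for Max, had the smallest p of the 10: it was at 61.1 and 46.4 in intact and at 70.8, 78.8, 84.5 and 63.1 in castrated samples. These groups did not overlap, and the log2 difference of 0.47 (0.08 to 0.86) had an adjusted p of 0.218 in limma. Mlxip had the next smallest p, at -0.24. Among 16 Myc targets outside the ribosome, 0 passed and 2 had an unadjusted p under 0.05 in limma. That share was no higher than the 15.9% over all tested genes. Both were lower in castrated samples: the phosphatase gene Cdc25a at -0.44 and the transferrin receptor gene Tfrc at -0.64. The median over the 16 was -0.03.

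**Figure D2:**
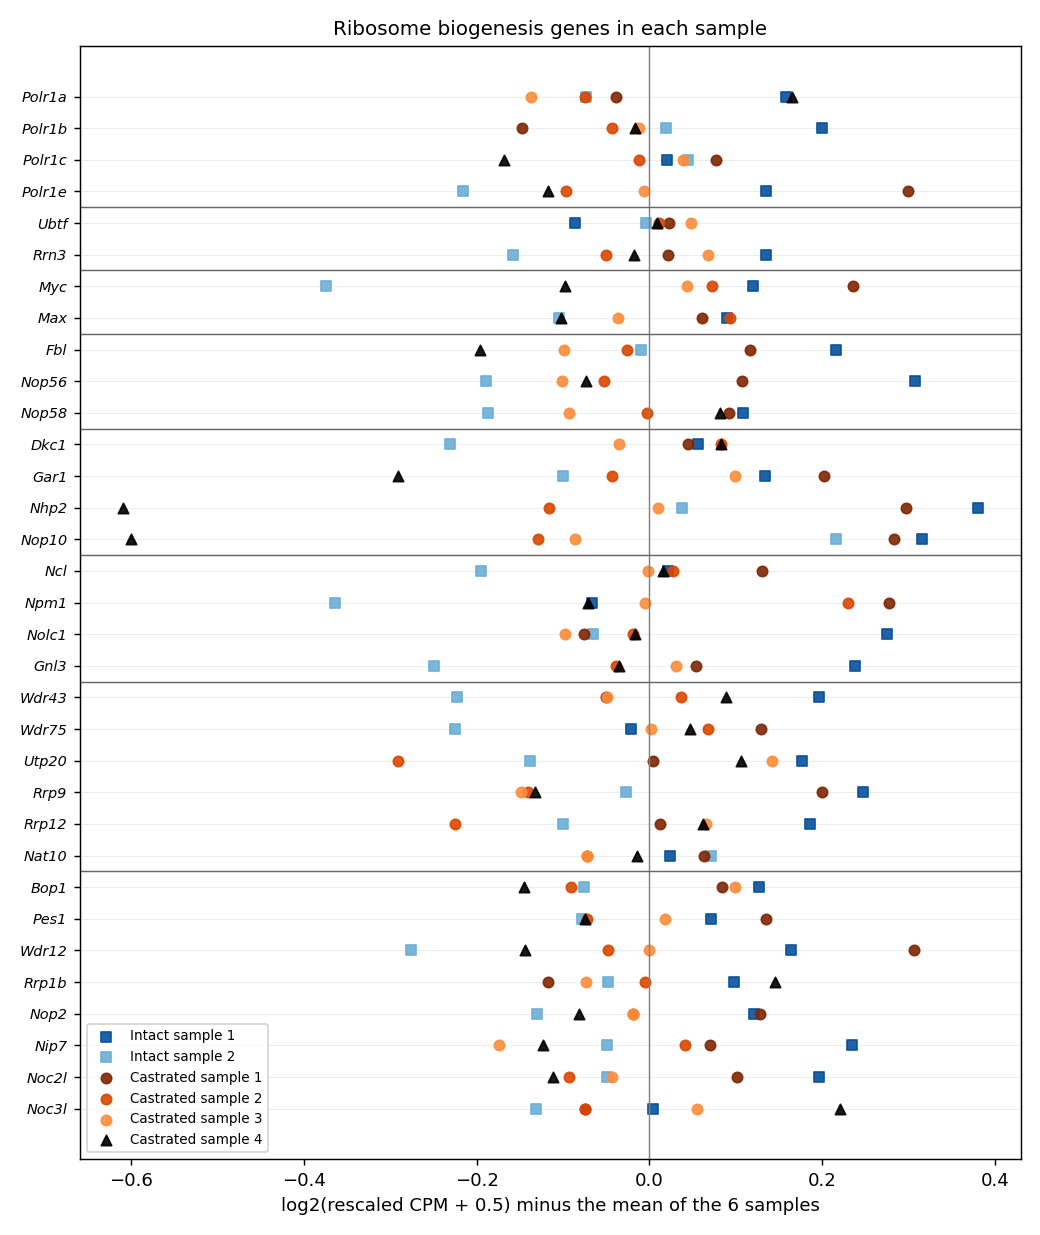
Each of the 33 genes in each sample, as log2(rescaled CPM + 0.5) minus the gene's mean over the 6 samples; squares are intact, circles and triangles castrated samples. Intact sample 1 lies to the right of intact sample 2 in 30 of 33 genes, and the castrated samples fall mostly between or around the pair.

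The intact samples differed from each other by more than the groups did. Intact sample 2 was below intact sample 1 in 30 of 33 members, where 50.5% of all tested genes were; the exceptions were Polr1c, Ubtf and Nat10. The median log2 gap, intact sample 2 minus intact sample 1, was -0.25 over the members and 0.00 over all tested genes. Nop56, Myc and Gnl3 had the widest gaps, at -0.50, -0.49 and -0.49. Of the 33 members, 16 had their highest value in intact sample 1 (17.2% of all tested genes did) and 16 their lowest in intact sample 2 (14.8%). The mean of the castrated samples lay between the intact values in 21 members, against 27.6% of all tested genes, and the difference between the groups was smaller than the gap between the intact samples in 29 members, against 47.2%. The members' direction thus depended on which intact sample was compared. Without intact sample 1, 26 members were higher in castrated samples, with a median log2 difference of 0.09. Without intact sample 2, 28 members were lower, with a median of -0.14. Of all 13898 tested genes, 7116 had a castrated mean above intact sample 2 and 7010 had one below intact sample 1. In both fits 0 members passed the threshold. This gap was not particular to the 33 genes listed: intact sample 2 was lower in 45 of 50 other small subunit processing genes (median gap -0.18) and in 50 of 57 other large subunit processing genes (median gap -0.21).

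Some marker lists moved along with the intact gap and others did not. All 12 proliferation markers, such as Mki67, were lower in intact sample 2 than in intact sample 1, with summed levels of 502 and 577 rescaled CPM. All 10 leukocyte markers, such as Ptprc, were also lower, with summed levels of 237 and 315. Of 6 neutrophil markers, such as S100a8, the 5 that were tested were lower too, and the summed levels of the 6 were 29.7 and 68.0, a wider gap for its size than in the other 2 lists. No marker of these lists was at 0 in a sample. Endothelial markers were lower in intact sample 2 in 5 of 7 genes (median gap -0.17). Smooth muscle markers went the other way, higher in 6 of 7 (median gap 0.21), as did 4 of 7 fibroblast markers (0.17). Luminal and basal markers were split, with 4 of 8 higher in each list. Within the castrated group the proliferation and leukocyte lists and the members took different orders: castrated sample 1 had the highest median deviation of the members (0.08) and a low one of the proliferation markers (-0.29), while castrated sample 4 had the lowest of the members (-0.07) with 0.20 for proliferation and 0.54 for leukocyte markers. The summed proliferation level ranged from 384 to 536 in the castrated group and the summed leukocyte level from 256 to 448. The part of these cells in the members' values was not tested.

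**Figure D3:**
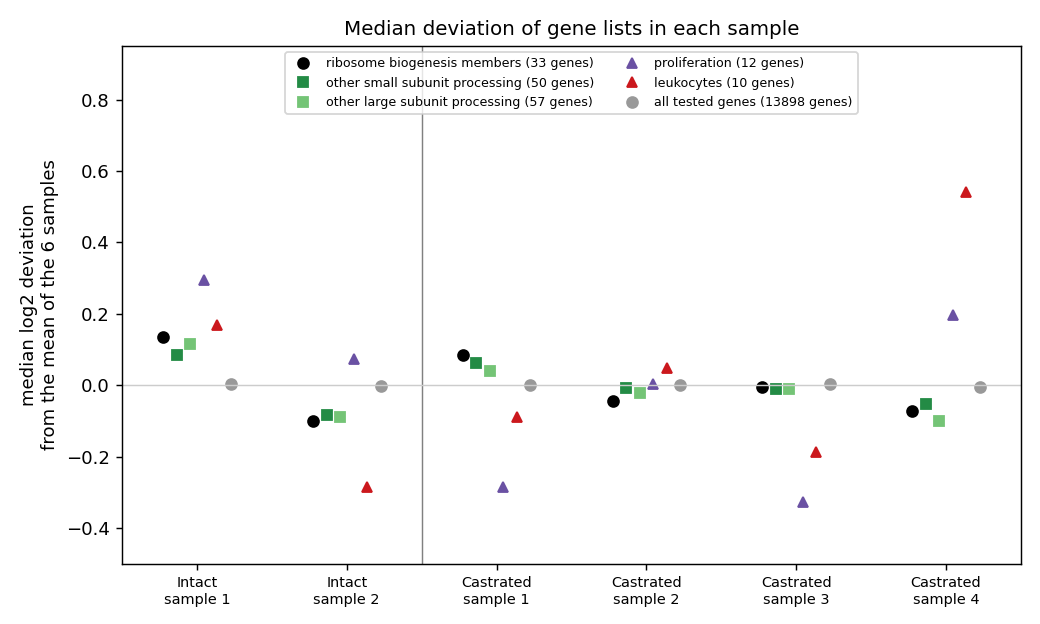
Median deviation of 6 gene lists in each sample, in log2 units from each gene's mean over the 6 samples; the vertical line divides intact from castrated samples and points of a sample are set side by side. The members stand at 0.14 and -0.10 in intact samples 1 and 2, the other processing lists follow the same order, and all tested genes stay near 0.

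Box C/D snoRNPs, which guide methylation of rRNA, have Fbl, the methyltransferase fibrillarin, and the scaffold proteins Nop56 and Nop58 at their core. All 3 genes were highest in intact sample 1 and overlapped between the groups, with log2 differences of -0.15, -0.09 and 0.06. Fbl was at 102 and 87.4 in intact and at 95.5, 86.5, 82.2 and 76.8 in castrated samples. Nop56 spanned 73.2 to 103 rescaled CPM and Nop58 67.2 to 82.6, and in both genes the 2 intact samples held the extremes.

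Box H/ACA snoRNPs, which convert uridines of rRNA to pseudouridine, have 4 core proteins, and 2 of their genes, Nop10 and Nhp2, held the widest spread over samples among the members. Nop10 (chromosome 2, 112261926 to 112263269) measured 78.5 and 73.2 rescaled CPM in the intact pair and 76.7, 57.5, 59.3 and 41.4 in castrated samples 1 to 4. Castrated sample 1 lay within the intact range and castrated sample 4 lay far below the others. The means were 75.9 ± 3.73 and 58.7 ± 14.4, a log2 difference of -0.40 (-0.94 to 0.14, limma adjusted p = 0.465). This was the lowest log2 difference in the list and did not pass the threshold. Nhp2 (chromosome 11, 51619735 to 51623714) was at 96.7 and 76.1 in intact and at 91.3, 68.4, 74.7 and 48.5 in castrated samples, with the same order of castrated samples at both ends. Its log2 difference was -0.31 (-0.90 to 0.28). Gar1 was also lowest in castrated sample 4, at 24.7 against 28.3 to 35.0 elsewhere, with a log2 difference of -0.03. Dkc1, the pseudouridine synthase dyskerin, took another order: it was at 39.5 and 32.3 in intact and between 37.1 and 40.3 in castrated samples, a difference of 0.13. Without castrated sample 4 the log2 differences of Nop10 and Nhp2 were -0.25 and -0.15.

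The 3 shortest members were all lowest in castrated sample 4. They are Nop10, Nhp2 and Gar1, with 1109, 1146 and 1714 bases of merged exons in GENCODE, and no other member is under 2 kb. Polr1c (2278 bases), Noc2l (2867), Bop1 (2957) and Fbl (4209), which are longer, were lowest there too, so 7 of 33 members were, against 26.5% of all tested genes. The median log2 value of the 3 shortest in castrated sample 4 lay -0.62 from the mean of the other castrated samples. Among all tested genes the same quantity was -0.37 for 331 genes under 1 kb, -0.24 for 1484 genes of 1 to 2 kb, -0.10 for 4156 genes of 2 to 4 kb and 0.09 for 7426 genes of 4 kb or more. The 13 members of 2 to 4 kb had a median of -0.11, and 84.6% of them lay below the other castrated samples' mean (61.1% of all tested genes of that length). The 17 members of 4 kb or more had a median of 0.01, with 47.1% below (39.3%). Length thus went with the deviation of castrated sample 4 over the whole table, and its part in the H/ACA values was not tested.

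Npm1, Ncl and Nolc1 encode nucleolar phosphoproteins and Gnl3 a nucleolar GTPase. Npm1, the histone chaperone nucleophosmin (chromosome 11, 33152287 to 33163206), reached 487 and 396 rescaled CPM in the intact pair and 618, 598, 508 and 485 in castrated samples. Castrated samples 1 to 3 were above both intact samples and castrated sample 4 was level with intact sample 1. The means were 442 ± 64.4 and 552 ± 65.6, at a log2 difference of 0.32 (-0.04 to 0.69), the highest in the list. Its unadjusted p of 0.0736 was the smallest of the 33 and its adjusted p in limma was 0.369. Npm1 is known to have processed pseudogenes, with which its reads may be shared. Ncl, nucleolin, which binds the rRNA precursor, was at 570 and 490 in intact and between 561 and 615 in castrated samples, a log2 difference of 0.13 (-0.14 to 0.39). Nolc1, a chaperone of snoRNPs, was at 76.3 and 60.2 in intact and between 58.8 and 62.2 in castrated samples (-0.16), and Gnl3, the GTPase nucleostemin, at 49.4 and 35.1 in intact and between 40.7 and 43.4 in castrated samples (0.01). In Gnl3 all castrated values lay between the intact values.

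Small subunit processing is represented by 6 genes. Wdr75, a subunit of the complex that binds the start of the precursor (chromosome 1, 45795166 to 45823619), was at 37.2 and 32.2 in intact and at 41.3, 39.6, 37.8 and 39.0 in castrated samples. The groups did not overlap, and the log2 difference was 0.18 (-0.06 to 0.43, limma adjusted p = 0.46). Its partner in that complex, Wdr43, had a log2 difference of 0.02 and overlapped between the groups. Rrp9, which binds the U3 snoRNA, was at 28.9 and 23.8 in intact and at 28.0, 22.0, 21.9 and 22.1 in castrated samples, so 1 castrated sample lay within the intact range and 3 lay close together below it. Its log2 difference was -0.17 (-0.53 to 0.20). Utp20, Rrp12 and the RNA acetyltransferase gene Nat10 had log2 differences of -0.03, -0.06 and -0.07.

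Large subunit processing is represented by 8 genes, whose log2 differences ranged from -0.14 (Nip7) to 0.10 (Noc3l). The trimeric PeBoW complex, needed to mature the large subunit rRNA, consists of the products of Pes1, Bop1 and Wdr12. Pes1 was at 104 and 93.7 in intact and between 93.9 and 109 in castrated samples, Bop1 at 70.9 and 61.5 and between 58.6 and 69.5, and Wdr12 at 25.4 and 18.6 and between 20.4 and 28.1. The log2 differences of the 3 genes were 0.01, -0.04 and 0.08, with intervals of -0.24 to 0.25, -0.32 to 0.24 and -0.35 to 0.52. The rRNA methyltransferase gene Nop2, Noc2l and Rrp1b overlapped between the groups too, at 0.01, -0.11 and -0.04. An antisense gene, Samd11, covers 20.9% of the exon bases of Noc2l, and no source used here says if the reads were counted by strand.

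Compared per length, the members covered a wide range of levels. Npm1 was highest at 166 rescaled CPM per kilobase of merged exons in intact samples, followed by Nhp2 (75.4), Nop10 (68.4) and Ncl (52.0). The ranges of Nhp2 (42.3 to 84.4), Nop10 (37.3 to 70.8) and Ncl (48.1 to 60.3) over the 6 samples overlapped, so their order is not resolved, while the range of Npm1 (149 to 232) lay above them. The RNA polymerase I subunits spread from 23.1 for Polr1c to 3.35 for Polr1e, with Polr1b at 3.83 and Polr1a at 3.44; the ranges of these last 3 overlapped. Ubtf (24.3), Myc (23.2) and Max (31.5) were in the upper part of the list, and Wdr12 (1.84) was lowest. These levels depend on the annotated exons, which in Wdr12 sum to 11955 bases.

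Some members also span genes of snoRNAs, the guides that direct changes to rRNA. In GENCODE, 6 of 33 members (18.2%) hold 19 snoRNA genes on their own strand, against 1.72% of 13397 tested genes that matched by name: Nop56 holds 5, Nop58 4, Ncl, Gnl3 and Wdr43 3 each and Dkc1 1. The log2 differences of these 6 hosts ran from -0.09 to 0.13.

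Other genes of the pathway were also near 0 with few exceptions. Of 229 tested genes in 11 lists of pathway genes outside the 33, 0 were higher (0.698% of all tested genes) and 1 was lower (1.27%) in castrated samples, and their median log2 difference was -0.01. The small subunit list, with 50 genes tested, had a median of 0.00 and 0 genes past the threshold; Riok3, an atypical kinase (-0.27), and Bysl (-0.22) had the smallest p. The large subunit list, with 57 genes tested, had a median of -0.02 and held the gene that passed, Tex10. Tex10, which encodes a subunit of a complex needed for late steps of large subunit maturation, was at 65.8 and 61.2 rescaled CPM in intact and at 41.7, 42.3, 43.2 and 40.6 in castrated samples. The groups lay far apart and each was tight, with means of 63.5 ± 3.26 and 42.0 ± 1.08 and a log2 difference of -0.59 (-0.80 to -0.38, limma adjusted p = 0.0311). Tex10 passed in edgeR (adjusted p = 0.0259), and its log2 difference stayed between -0.65 and -0.54 with 1 sample left out, although the call was kept in 1 of those 6 fits (adjusted p from 0.0185 without castrated sample 4 to 0.248 without intact sample 1). The call was also lost without a mean-variance trend (adjusted p = 0.0535).

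The other subunits of the Tex10 complex, named after the value of Tex10 was seen, did not move as one. Las1l, the endonuclease subunit, was at 57.5 and 49.1 in intact and at 65.1, 64.3, 62.4 and 79.2 in castrated samples, higher in each castrated sample at a log2 difference of 0.34 (0.03 to 0.65, limma adjusted p = 0.272). Pelp1 had a log2 difference of -0.20 (-0.41 to 0.02), Wdr18 of -0.14, Senp3 of -0.01 and Nol9 of 0.02. After Tex10, the smallest p of the large subunit list was that of Surf6, a nucleolar matrix protein gene, at 52.7 and 49.2 in intact and at 36.6, 35.7, 37.1 and 34.4 in castrated samples. Its log2 difference was -0.50 (-0.72 to -0.28), with an adjusted p of 0.0555 in limma and 0.0482 in edgeR. With 1 sample left out the log2 difference of Surf6 stayed between -0.55 and -0.45. Surf6 passed the threshold in 4 of 19 fits, counting the main one and the alternatives. Eif6, named after its values were seen, which keeps the subunits apart until the large one is mature, was at 151 and 129 in intact and at 96.4, 104, 102 and 91.9 in castrated samples. Its groups did not overlap, and its log2 difference was -0.50 (-0.75 to -0.25), with an adjusted p of 0.0729 in limma and 0.0764 in edgeR. With 1 sample left out the log2 difference of Eif6 ranged from -0.61 to -0.39, and Eif6 passed in 3 of the 19 fits. Several lists of marker genes moved with the same contrast. In limma, 4 of 5 tested neutrophil markers passed and were higher in castrated samples, with a median log2 difference of 2.45 and summed levels of 200 to 353 against 29.7 and 68.0 in intact. All 8 basal markers had lower means in castrated samples (median -1.08), and 1 passed, Lamb3. All 7 smooth muscle markers had higher means (median 0.90, summed levels of 260 to 466 against 195 and 211), and 0 passed. Log2 differences were below 0 in all 12 proliferation markers (median -0.29) and in 6 of 7 endothelial markers (median -0.37), and 0 passed in either list. The other lists were mixed, with 4 of 8 luminal, 4 of 7 fibroblast and 3 of 10 leukocyte markers below 0. The part of these cells in the values of Tex10, Surf6 and Eif6 was not tested.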

How the data were processed

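Total RNA of 6 prostate samples (2 intact, 4 castrated) was sequenced. The authors deposited 1 table of CPM per sample, with no scaling between samples beyond the sum of 1000000. The submitters' processing notes name TopHat2, HTSeq, edgeR and mm10, without versions; settings, strand use and annotation are not given there. In each sample 100% of values were whole multiples of 1 read (tolerance 1e-06), which gave 43679297 to 59170793 reads per sample and allowed count tests. A count of 0 allows up to 3 reads.

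CPM was divided by median-of-ratios size factors (0.978 to 1.05). The 13898 genes that reached 1 CPM in 2 or more samples were fitted with limma 3.58.1 (R 4.3.3) on log2(rescaled CPM + 0.5) with a mean-variance trend, and two-sided p-values were adjusted by Benjamini-Hochberg over all of them, with a threshold of 0.05. Folds on this scale understate changes of low genes. Alternatives were other pseudocounts, filters, scalings, no trend, array weights, each sample left out, a block on replicate number, and count tests on the recovered reads with edgeR 4.0.16 (its quasi-likelihood test) or DESeq2 1.42.0. On simulated counts of this design a larger share of the calls was false in DESeq2 than in limma or edgeR. DESeq2 is therefore given for counts of calls and for log2 differences, without p-values of single genes. No 2 samples agreed within sampling noise.

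The members, pathway lists and markers were chosen with earlier results of these data known. Values in every sample are given for polymerase I genes, Myc, Max, members past the threshold, and the members with the 3 largest differences each way, the 3 smallest p and the 3 largest spreads; from each pathway list, members past the threshold are named and the genes with the 2 smallest p given at least by their log2 difference. Gene positions, exon lengths and snoRNAs are from GENCODE M21 on GRCm38, the assembly of mm10, and promoter windows from RefSeq on GRCm38.p6. The floxed gene is not reported here.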

Additional observations from a re-analysis of the deposited data

Results flagged for a closer look

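Rrp9, whose product binds the U3 snoRNA, was set apart in the castrated group by 1 sample. Castrated sample 1 was at 28.0 rescaled CPM, and the other castrated samples lay between 21.9 and 22.1. On the log2 scale the gap took up 0.954 of the group's range, above Dixon's 95% critical value for 4 samples. Chance flags about 1 in 20 groups, and 33 genes were examined.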

How the results depend on the processing

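With 18 alternative fits beside the reported one, 0 of the 33 members passed the threshold in any, and the smallest adjusted p of a member was 0.126 (Npm1). The count of genes past the threshold over the whole table, 274, was 170 with no filter, 954 with array weights, 417 with the replicate block and 1293 in DESeq2, and ranged from 1 (without intact sample 2) to 1052 (without castrated sample 4) with 1 sample left out. The members' median log2 difference ranged from -0.14 to 0.088 with 1 sample left out, and was 0.02 on CPM as deposited, where the median of all tested genes was 0.05. Many members lie so close to 0 that their sign is not fixed: of 594 values under alternatives, 49 had the other sign, in 23 members. On CPM as deposited these were Gar1 (0.022), Utp20 (0.019), Bop1 (0.0082) and Rrp1b (0.0094). With array weights they were Gar1 (0.0023) and Pes1 (-0.0087). With the replicate block they were Polr1c (0.00050), Rrn3 (-0.0029), Gar1 (0.062) and Noc3l (-0.011). Gnl3 was at -0.014 in edgeR and -0.010 in DESeq2. With 1 sample left out, the log2 difference ranged over Polr1a -0.18 to 0.048, Polr1c -0.081 to 0.0006, Polr1e -0.12 to 0.23, Rrn3 -0.13 to 0.16, Myc -0.058 to 0.43, Max -0.088 to 0.11, Nop56 -0.34 to 0.16, Nop58 -0.090 to 0.20, Dkc1 -0.014 to 0.27, Gar1 -0.14 to 0.088, Nolc1 -0.33 to 0.0094, Gnl3 -0.24 to 0.25, Wdr43 -0.19 to 0.23, Utp20 -0.19 to 0.13, Rrp12 -0.21 to 0.076, Bop1 -0.14 to 0.059, Pes1 -0.071 to 0.077, Wdr12 -0.14 to 0.30, Rrp1b -0.11 to 0.033, Nop2 -0.12 to 0.13, Nip7 -0.28 to 0.0002, Noc2l -0.24 to 0.0086. Leaving out an intact sample leaves 1, which is assumed to vary like the castrated ones. Groups share replicate numbers 1 and 2, but the labels do not say that a number pairs samples. Deviations of same-numbered samples from their group means correlated at 0.0754 and 0.226 over genes. With 2 intact samples these deviations mirror each other, so the cross-numbered pairs were at -0.226 and -0.0754. The values therefore cannot tell whether numbers pair samples. Replicate numbers 3 and 4 occur in castrated samples only, so with the block the contrast rests on replicates 1 and 2. No member was called with the block or without it. Each member had at least 627 reads in each sample. The call of Tex10 was lost with the block (adjusted p = 0.0852).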

Other observations

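Genes that read out or depend on the nucleolus in other ways did not pass the threshold. Of 14 p53 targets, which rise in nucleolar stress, 0 passed the threshold and 10 were lower in castrated samples, with a median log2 difference of -0.11. The smallest p were those of Trp53inp1 (-0.60, limma adjusted p = 0.214) and Sesn2 (-0.29). Of 15 tested snoRNA host genes that make no known protein, 0 passed, with a median of 0.05, a median size of 0.21 regardless of sign (0.18 over all tested genes) and values from -0.92 for Snhg18 to 1.08 for Snhg14, the highest. Snhg18 and Snhg3 (-0.52) had the smallest p. Castrated sample 4 was lowest in 8 of the 15 (26.5% of all tested genes) and castrated sample 1 highest in 10 (23.7%). Castrated sample 4 was also lowest in 7 of the 9 other polymerase I subunit genes.

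RNA polymerase III, which makes the smallest rRNA and the transfer RNAs, had 22 genes tested, 0 past the threshold and a median of 0.01. Polr3g, its alternative subunit found in growing and undifferentiated cells, was at 9.60 and 9.25 rescaled CPM in intact and at 5.48, 7.65, 8.05 and 5.91 in castrated samples. The groups did not overlap, and the log2 difference was -0.47 (limma adjusted p = 0.33). Gtf3c1 had the next smallest p, at -0.21. Of 24 snoRNP assembly and RNA exosome genes 0 passed, with a median of 0.01, and Naf1 (0.28) and Ruvbl2 (-0.17) had the smallest p.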
